A study of Mus musculus with 2 samples.

Results

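Immediate early genes were examined in samples labelled as isolated proximal tubular (PT) cells. The samples came from wild-type mice and from mice lacking KAT5 in these cells (KAT5 KO mice). The list held 10 genes, the AP-1 subunits Fos, Fosb, Fosl1, Fosl2, Jun, Junb and Jund, the transcription factors Egr1 and Atf3, and Zfp36. They were chosen by name from the 19505 genes that the array reads, with earlier results of these data known, so the counts are description only. All 10 were on the array, each with 1 probe set. Of these, 9 were 2-fold or more lower on the KAT5 KO array and 0 were higher, whereas 15.9% of all measured genes were lower by that much and 17.8% were higher. Fosl2 alone among the 10 lay within 2-fold. The samples were not alike in cell type markers. Mean log2 levels of 16 PT markers were 9.93 for wild-type and 16.67 for KAT5 KO. Among 56 measured markers of other cell types, 43 were 2-fold or more lower for KAT5 KO and 1 was higher. How much of each immediate early gene level came from PT cells was not tested.

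Gene expression was measured on Clariom S mouse arrays, which read the level of each gene from labelled RNA bound to short probes, with 1 array per genotype. The labels gave male mice of 8 weeks and 64 ng of RNA for both arrays, and no operation or drug, although their free text also mentions embryos. KAT5 KO mice carried floxed KAT5 alleles and a γGT-Cre transgene on a C57BL/6J background, and γGT is active along the proximal tubule and most intensely in its S3 segment. The labels named the other genotype only as wild type, whereas the controls of the study's ischemia experiments on KAT5 KO mice were littermates with floxed KAT5 and no Cre. Which of these the array shows, and how many mice stand behind each array, is not given in the sources used here. The cells had been freed from minced kidney, depleted of CD31-positive endothelial cells and selected with an antibody against Prominin1.

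KAT5 is a histone acetyltransferase that acts in transcription and DNA repair. Its gene, Kat5, was at 10.20 in the wild-type and 8.67 in the KAT5 KO sample (log2), which left 34.8% of the wild-type level. Of all measured genes, 8.4% had a more negative difference. The paper reports a larger decrease of KAT5 in isolated PT cells, with real-time RT-PCR and western blots. The arrays also differed in ways that the genotype labels do not state. Of 16 PT markers, 15 were 2-fold or more higher on the KAT5 KO array, beside 17.8% of all measured genes. Over the 16, the median difference was 7.07 and mean levels were 9.93 for wild-type and 16.67 for KAT5 KO. The remaining marker, Kap, was lower, at 12.19 in the wild-type and 7.73 in the KAT5 KO sample (-4.46). Slc34a1, a higher PT marker, was at 19.93 in the KAT5 KO sample, the highest value of the arrays. Its difference of 6.16 and the mean of 16.67 are thus lower bounds. Prom1, which encodes the Prominin1 used for selection, was at 9.07 in the wild-type and 13.74 in the KAT5 KO sample. Over the lists of 10 other cell types, 43 of 56 measured markers were 2-fold or more lower and 1 was higher, and the list medians lay between -3.17 and -0.92. The labels called both samples male, but 3 genes of the Y chromosome (Uty, Eif2s3y and Kdm5d) had levels of 3.42, 2.29 and 3.76 in the KAT5 KO sample, all under background, against 9.84, 10.11 and 7.69 in the wild-type sample. In such preparations, fewer cells of a type and less RNA per cell cannot be told apart, and the parts of genotype, cell type markers and Y-linked genes, which all differ between the same 2 arrays, cannot be told apart either.

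Immediate early genes are transcribed within minutes of a stimulus, by factors already present in the cell. Growth factors, stress and the handling of tissue all act on them through the ERK, JNK and p38 kinases, which reach the promoters through the serum response factor and its partners and through factors of the CREB and ATF family. Fos and Jun proteins then pair by their leucine zippers to form AP-1. In kidney, these genes are well known to respond to ischemia and to the enzymatic or mechanical release of cells. Zfp36 belongs to the group by its induction and not by its function, since it encodes tristetraprolin, an RNA-binding protein that speeds the decay of messages with AU-rich elements, and is not a transcription factor.

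The promoters of members are shown first, because the members were lower together. RefSeq windows (GRCm38.p6) were used for 8 of the 10 genes, all but Fosl1 and Egr1, and the 250 bases before the start were searched on both strands for letters known from stimulus-responsive promoters. The 120 bases closest to the start are shown for 4 members that were lower and for Fosl2, which was not, in the direction of transcription. Capitals mark TGACGT or its reverse complement in Fos and Atf3, TGANNTCA in Jun, the CArG box and GCGNGGGCG in Zfp36, and GCGNGGGCG in Fosl2.
Fos, chr12:85473770-85473889, plus strand: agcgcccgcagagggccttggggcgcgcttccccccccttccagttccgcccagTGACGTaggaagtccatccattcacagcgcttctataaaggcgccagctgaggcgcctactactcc
Jun, chr4:95052223-95052342, minus strand: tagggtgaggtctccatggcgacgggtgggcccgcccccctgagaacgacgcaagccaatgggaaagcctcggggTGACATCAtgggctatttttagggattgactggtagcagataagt
Atf3, chr1:191183334-191183453, minus strand: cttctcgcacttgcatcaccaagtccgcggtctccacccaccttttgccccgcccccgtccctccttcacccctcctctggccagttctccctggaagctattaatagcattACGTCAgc
Zfp36, chr7:28379229-28379348, minus strand: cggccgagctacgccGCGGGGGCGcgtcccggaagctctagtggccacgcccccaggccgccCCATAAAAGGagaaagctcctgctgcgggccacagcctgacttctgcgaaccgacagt
Fosl2, chr5:32136352-32136471, plus strand: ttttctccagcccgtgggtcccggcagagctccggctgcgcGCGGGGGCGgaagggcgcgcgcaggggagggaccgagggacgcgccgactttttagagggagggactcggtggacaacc

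TGACGT, the core of the site bound by CREB and ATF factors, began 66 bases before the start of Fos, upstream of a TATAAA at 33 bases, and its reverse complement lay at 8 to 3 bases in Atf3. This core was in 2 of the 8 promoters and in 6.56% of 27025 promoters of all genes, and the full TGACGTCA was in 0 of 8 and 1.62%. TGACGT and TGANNTCA were added to the search after the promoters had been read, so their counts are description only. In Jun, TGACATCA lay at 45 to 38 bases, and TGANNTCA, which includes TGACGTCA, was in 2 of 8 promoters, those of Jun and Jund, and in 12.0% of all. TGANTCA, the AP-1 site, was in 0 of 8 and in 6.87% of all. GCGNGGGCG, the letters bound by Egr proteins, was in Zfp36, Fosb and Fosl2 and in 4.65% of all promoters, so it was found both in members that were lower and in the member that was not. The CArG box, bound by serum response factor, was in 1 of 8 promoters, at 58 to 49 bases in Zfp36, and in 1.40% of all. Sites upstream of the searched bases were not looked for, in Fos or any other gene, and Fosl1 and Egr1 had no window. The absence of a match therefore does not show that a gene lacks a CArG box. The search for TATAAA covered 1 strand and found it in 1 of 8 and in 8.12% of all. A match describes the letters of a window and is not evidence of binding.

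Levels are given on the log2 scale as deposited, after robust multi-array averaging (RMA), on which 1 unit is a 2-fold difference. Genes are compared between the arrays and not with each other, since each probe set has its own brightness. The background level was 5.14, taken from 1465 receptor genes of smell, pheromones and taste, and all 10 members lay above it on both arrays. A difference is KAT5 KO minus wild-type, and with 1 array per genotype it has no error and no test. Over the 10 members the median difference was -1.63, a 3.10-fold lower level, beside -0.05 for all 11635 measured genes.

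**Figure D1:**
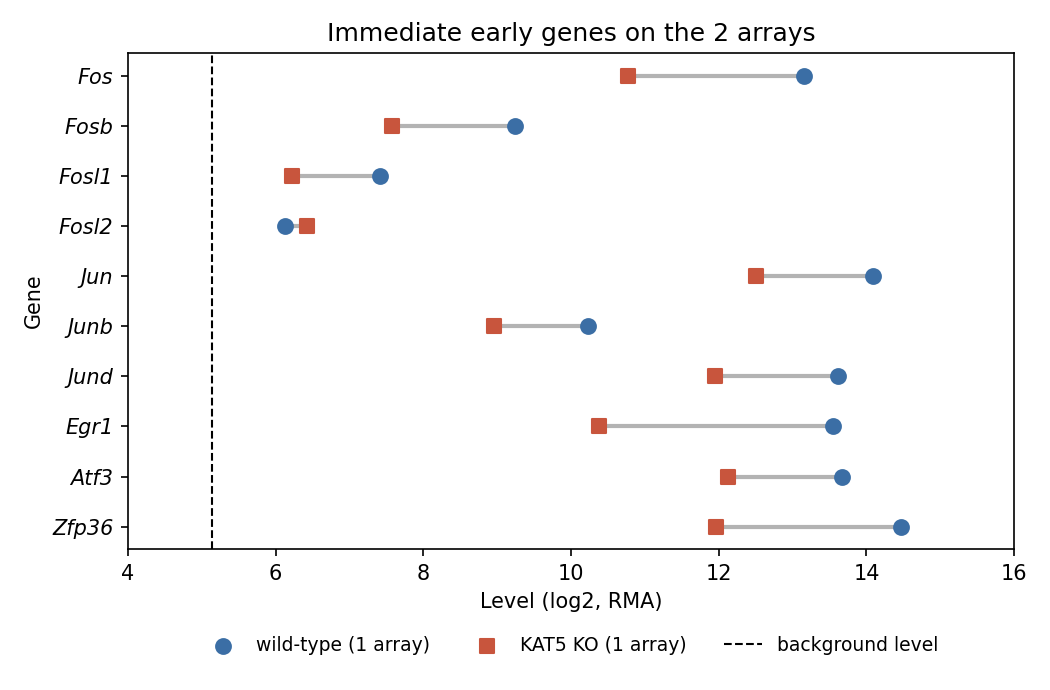
Levels of the 10 immediate early genes (log2) on the wild-type array (circles) and the KAT5 KO array (squares), with the background level of 5.14 as a dashed line. The squares lie to the left of the circles for 9 genes and to the right for Fosl2, and Egr1 spans the longest distance, from 13.54 to 10.38.

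Among the Fos family, whose products bind DNA as partners of Jun proteins, 3 of 4 genes were 2-fold or more lower on the KAT5 KO array. Of all measured genes, 15.9% were lower by that much and 17.8% were higher. Fos, the prototype of the group, was at 13.16 in the wild-type and at 10.77 in the KAT5 KO sample, a difference of -2.38 that left 19.2% of the wild-type level. Only 2.64% of measured genes had a more negative difference. Fosb, which also gives the long-lived splice form ΔFosB, was at 9.24 and 7.58, a difference of -1.66. Splice forms could not be told apart at the gene level deposited here.

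Fosl1 and Fosl2 encode Fra-1 and Fra-2, which appear later than Fos and lack its strong activation domain. Fosl1 was at 7.41 in the wild-type and 6.22 in the KAT5 KO sample, a difference of -1.19 from levels 2.27 and 1.08 above background. Fosl2 was at 6.13 and 6.42, a difference of 0.29, or 1.22-fold higher on the KAT5 KO array. It lay 0.99 and 1.28 above background, so little signal stood behind its value. The family thus ran from -2.38 for Fos to 0.29 for Fosl2.

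The 3 Jun genes lay closer together, between -1.66 and -1.28. Jun, the main partner of Fos, which also pairs with itself and drives its own promoter, was at 14.09 in the wild-type and 12.50 in the KAT5 KO sample, a difference of -1.60. Junb, a weaker activator that can oppose Jun, was at 10.23 and 8.95, a difference of -1.28. Jund is the least inducible of the family and is present in many resting cells. It was at 13.62 and 11.95, and its difference of -1.66 stood beside -1.60 for the inducible Jun. All 3 were thus lower on the KAT5 KO array, where 33.0%, 41.2% and 31.5% of the wild-type level was left for Jun, Junb and Jund. By 2-fold or more, 15.9% of all measured genes were lower.

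Egr1 had the most negative difference of the 10 members. This zinc finger factor of GC-rich promoters was at 13.54 in the wild-type and at 10.38 in the KAT5 KO sample, a difference of -3.16 or 8.93-fold. Of all measured genes, 0.645% had a more negative difference. Atf3, a stress-induced factor that pairs with Jun proteins and as a homodimer acts mostly as a repressor, was at 13.67 and 12.13, a difference of -1.54. Zfp36 was at 14.47 in the wild-type and 11.96 in the KAT5 KO sample, a difference of -2.51 that left 17.5% of the wild-type level. Egr1, Zfp36 and Fos thus stood below the other 7 members, with 0.72 or more between Fos and the next of them.

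**Figure D2:**
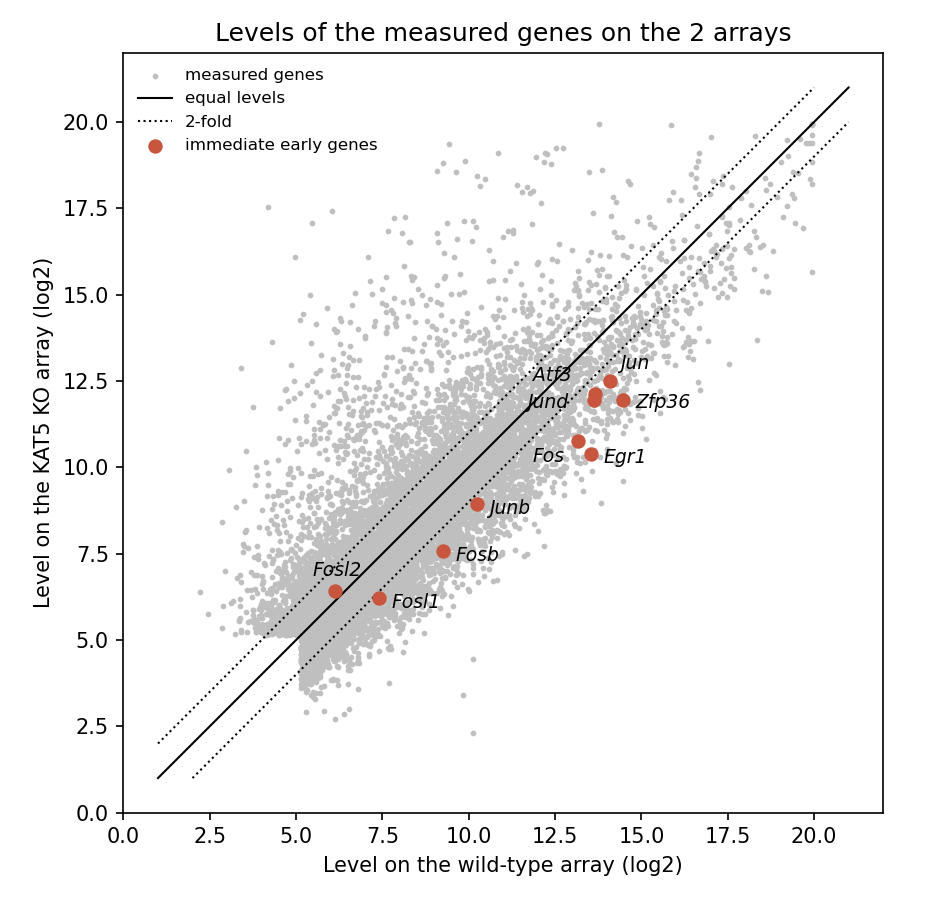
Level on the KAT5 KO array against level on the wild-type array (both log2) for the measured genes (grey) and the 10 immediate early genes (red), with the line of equal levels and dotted lines at 2-fold. The 9 lower members lie below the lower dotted line, with Egr1 the furthest from it, while Fosl2 lies near the line of equal levels and near the background level.

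Other genes that respond early were next examined. Of 47 such genes, 41 were measured. Of these, 21 (51.2%) were 2-fold or more lower on the KAT5 KO array and 0 were higher, with a median difference of -1.09. Among all measured genes, 15.9% were lower and 17.8% were higher, and the median was -0.05. In all, 40 of the 41 differences were below 0, and that of the kinase Plk2 was above it, at 0.32. The antiproliferative gene Btg2 was at 13.42 in the wild-type and 11.08 in the KAT5 KO sample (-2.34). Dusp6, the phosphatase that switches ERK off, was at 13.98 and 11.71 (-2.27), the interferon regulatory factor Irf1 at 11.78 and 9.58 (-2.20), and Cebpd, a factor of the acute phase response, at 8.31 and 6.10 (-2.20). The relatives of Zfp36 that bind the same AU-rich elements were lower as well, with Zfp36l2 at 15.65 and 13.55 (-2.11) and Zfp36l1 at 14.80 and 13.12 (-1.68). Egr2, a relative of Egr1, was at 9.39 and 9.33, a difference of -0.06, and Egr3 and Egr4 were under the background level on both arrays. Dusp1, the phosphatase that acts on JNK and p38, was at 17.59 and 15.63 (-1.96), and Ier2 was at 7.92 and 7.26 (-0.67). Plk2, Egr2 to Egr4, Dusp1 and Ier2 were named after their values were seen.

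Factors that share the basic leucine zipper (bZIP) with AP-1 were more mixed. Of 18 measured, 8 were 2-fold or more lower, 1 was higher and 9 lay within 2-fold (median -0.84). These shares were 44.4% lower and 5.56% higher, beside 15.9% and 17.8% of all measured genes. Jdp2, which pairs with Jun and represses AP-1 sites, was at 7.14 in the wild-type and 5.66 in the KAT5 KO sample (-1.48). Lower too were Atf6 (-2.16) and Nfe2l1 (-1.88), which sense stress of the endoplasmic reticulum and of the proteasome, Creb5 (-2.12), and Nfe2l2 (-1.42), the regulator of antioxidant genes. Maf was at 11.19 and 12.97, the 1 factor on the list that was 2-fold or more higher (1.78).

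Kinases and factors that act on the members, with some regulators of members, were listed as an ERK and a JNK and p38 arm. Most of these genes, 17 of the 23 measured, lay within 2-fold, as did 7716 of all 11635 measured genes. Of 13 measured genes of the ERK and serum response factor arm, 3 were lower, 1 was higher and 9 lay within 2-fold (median -0.51). Srf, which holds the CArG box, was at 7.88 in the wild-type and 7.07 in the KAT5 KO sample (-0.81). Of its ERK-dependent partners, Elk3 was 2-fold or more lower, at 9.38 and 7.41 (-1.97), whereas Elk1 (-0.97) and Elk4 (-0.44) lay within 2-fold. Mrtfa, its actin-regulated partner, differed by -1.14, the kinase Rps6ka5, which phosphorylates histone H3 at these genes, by -1.04, and Map2k2, a kinase of ERK, by 1.51. Nab1 and Nab2, corepressors of Egr1, differed by -0.02 and -0.78.

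Of 10 measured genes of the JNK and p38 arm, 2 were lower, 0 were higher and 8 lay within 2-fold, and the median was 0.08. The shares lower by 2-fold or more were 23.1% for the ERK arm and 20.0% for the JNK and p38 arm, beside 15.9% of all measured genes. Mapk8 and Mapk9, the JNK kinases that phosphorylate Jun, were at 6.09 and 8.94 in the wild-type and at 6.43 and 9.60 in the KAT5 KO sample (0.34 and 0.66). Map3k1, which lies upstream of JNK, was at 11.72 and 9.36 (-2.36), and Mapk14, the p38α kinase, at 12.64 and 11.26 (-1.38). Mapkapk2, which phosphorylates and restrains tristetraprolin, was at 7.29 and 7.36 (0.07). Message levels do not show how active these kinases were.

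**Figure D3:**
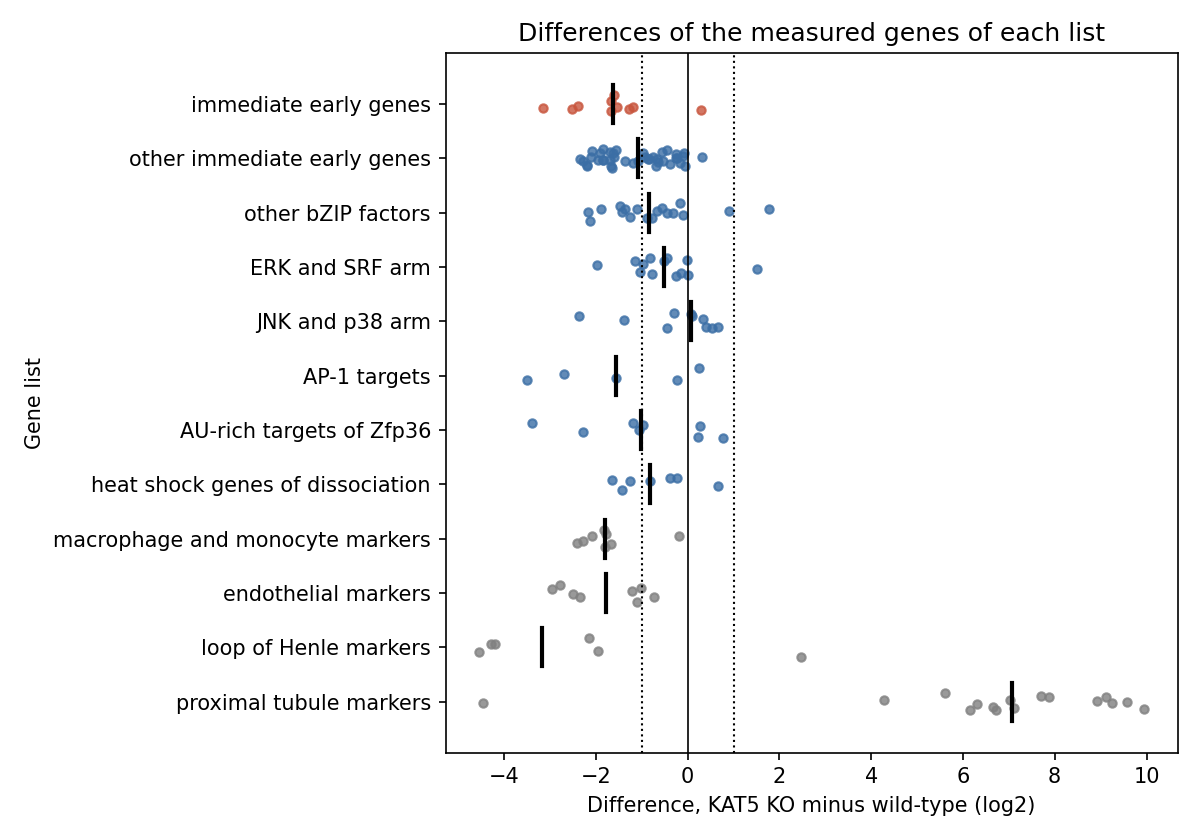
Difference between the arrays (KAT5 KO minus wild-type, log2) of each measured gene, by list, with the median of each list as a black bar and dotted lines at 2-fold. The immediate early genes (red) have a median of -1.63, within the range of the medians of the lists of other cell types (-3.17 to -0.92, not all plotted), while the JNK and p38 arm lies at 0.08 and the PT markers at 7.07.

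Genes known to carry AP-1 sites were next on the lists. Of 8 on the array, 5 were measured, of which 3 (60.0%) were lower and 0 were higher (median -1.56). Among all measured genes, 15.9% were lower and 17.8% were higher. The collagenase Mmp13, a classical AP-1 target, was at 13.79 in the wild-type and 10.31 in the KAT5 KO sample (-3.49), the hyaluronan receptor Cd44 at 12.64 and 9.94 (-2.70), and the heme oxygenase Hmox1 at 13.76 and 12.20 (-1.56). The urokinase Plau differed by 0.24. Of 13 genes whose messages tristetraprolin is known to destabilise, 8 were measured, of which 4 were lower and 0 were higher (median -1.02). Il1b was at 15.37 and 11.96 (-3.40), and the chemokines Ccl3, Ccl2 and Ccl4 differed by -2.29, -1.19 and -1.06. Tnf, the best known target, was at 7.64 and 6.66 (-0.98), and Cxcl2 at 8.90 and 9.68 (0.78). Plau, Tnf and Cxcl2 were named after their values were seen. Il1b and Ccl3 are made largely by myeloid cells.

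Heat shock genes, which also respond to the release of cells from tissue, were examined beside the members. Of 7 measured, 3 (42.9%) were lower and 0 were higher (median -0.81), beside 15.9% and 17.8% of all measured genes. Hspa1a was at 18.32 in the wild-type and 16.67 in the KAT5 KO sample (-1.65), its near-identical copy Hspa1b at 17.60 and 16.16 (-1.44), and the cochaperone Dnajb1 at 13.20 and 11.94 (-1.26). Probes of Hspa1a and Hspa1b can bind the message of either gene.

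Most markers of other cell types were also lower on the KAT5 KO array. By 2-fold or more, 43 of 56 measured were lower and 1 was higher, beside 15.9% and 17.8% of all measured genes. Of 6 loop of Henle markers, 5 were 2-fold or more lower and 1 was higher (median -3.17, mean levels 13.28 and 10.83). Umod, which encodes uromodulin of the thick ascending limb, was at 19.93, the highest value of the arrays, in the wild-type and at 15.65 in the KAT5 KO sample, so its difference of -4.28 is a lower bound in size. Of 7 principal cell markers, 5 were lower (median -2.94, mean levels 9.58 and 7.15), and of 6 intercalated cell markers, 5 were lower (median -2.72, mean levels 9.32 and 6.84). Of 4 distal convoluted tubule markers, 3 were lower (median -1.67, mean levels 10.76 and 9.25), and Trpm6 was under background for KAT5 KO only. Of 3 measured podocyte markers, 1 was lower (median -0.92).

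Of 8 measured macrophage and monocyte markers, 7 were 2-fold or more lower on the KAT5 KO array, with a median of -1.81 and mean levels of 15.50 for wild-type and 13.75 for KAT5 KO. None of these 8 markers was under the background level on either array. Of 8 endothelial markers, 7 were lower (median -1.78, mean levels 7.98 and 6.06), and Tek and Plvap were under background for KAT5 KO only. Of 5 neutrophil markers, 3 were lower (median -1.77, mean levels 8.10 and 6.49), and Cxcr2 was under background for KAT5 KO only. Of 4 measured genes on the lymphocyte list, 4 were lower (median -2.35), but Ptprc among them is carried by all leukocytes, and Cd2 was under background for KAT5 KO, so that its difference is a bound. The B cell genes Cd79a and Ms4a1 differed by -2.83 and -1.04, while the T cell genes Cd3e and Cd3d and the cytotoxic cell gene Nkg7 were under the background level on both arrays. Of 5 measured fibroblast and mural markers, 3 were lower (median -1.64). Col1a1, Dcn, Pdgfrb and Tagln of these were under background for KAT5 KO, so that their differences and the median are bounds, and Col1a2 and Col3a1 were under the background level on both arrays. The part of these cells in the lower immediate early genes was not tested, and with 1 array per genotype it cannot be told apart from that of the genotype.

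The 3 further scalings of the arrays left 9 members lower by 2-fold or more and Fosl2 within 2-fold. With each array centred on its median, with quantile normalization and with the trend of the difference on mean level removed, Egr1 lay between -3.31 and -2.92, Jun between -1.75 and -1.27, and Fosl2 between 0.29 and 0.39, the deposited values included. At a threshold of 3-fold, 6 members were lower, which were Fos, Fosb, Jun, Jund, Egr1 and Zfp36, beside 7.88% of all measured genes (10.7% were higher). At 1.5-fold, 9 members were lower and 0 were higher, beside 26.9% and 26.7% of all measured genes.

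**Figure D4:**
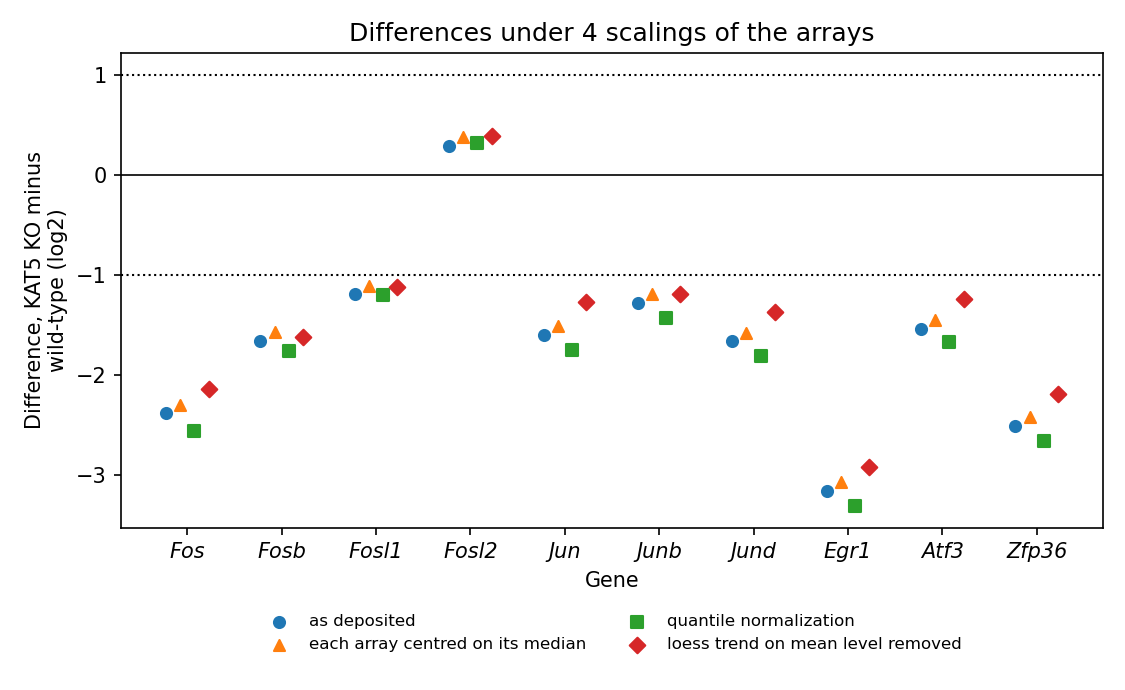
Difference of each immediate early gene (KAT5 KO minus wild-type, log2) with the deposited levels and under 3 further scalings of the arrays, with dotted lines at 2-fold. The 9 lower members stay below -1 under each scaling and Fosl2 stays within 2-fold.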

How the data were processed

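The authors hybridised RNA of isolated PT cells to Clariom S mouse arrays and processed them with RMA in the Transcriptome Analysis Console, with versions not given in the sources used here. The deposited values are log2 levels of 28846 probe sets, of which 19572 carried 1 gene symbol of the platform annotation, 0 carried several and 9274 carried none and were left out. They covered 19505 genes, and probe sets of a gene were averaged. The 95th percentile of the receptor genes was taken on each array, and the larger value served as background level. Lower levels were set to it, and a gene that exceeded it on either array was called measured (11635 genes).

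Differences were KAT5 KO minus wild-type, called higher or lower at 2-fold. With 1 array per genotype no test was possible, and precision is limited by the number of arrays. Gene members and lists were chosen with earlier results of these data known. The text names all 10 members, up to 5 genes in each direction among those 2-fold or more apart in each of 7 pathway lists, and direct partners of members. TGACGT and TGANNTCA were added to the motif search after the promoters had been read. The alternatives were 3 scalings (loess span 0.3), 3 background levels, the brightest probe set, the mean of a list, and thresholds of 1.5-fold and 3-fold. The steps were tested on simulated arrays. Python 3.11.15, numpy 2.4.6, pandas 2.3.3, statsmodels 0.14.6 and matplotlib 3.10.9 were used.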

Additional observations from a re-analysis of the deposited data

How the results depend on the processing

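Under the 3 scalings, no sign changed for the 10 members or Kat5, and none crossed 2-fold. The 3 background levels and the brightest probe set left these values as they were. They could not change them, since each of these genes had 1 probe set and lay above background on both arrays. The count of lower members was 9 under each scaling, at 1.5-fold it was 9 and at 3-fold it was 6. Kat5 ranged from -1.68 to -1.44 and the median of the members from -1.75 to -1.32. The median of the other immediate early genes ranged from -1.26 to -0.97, and the value of -0.97, within 2-fold, was that with no background level, which adds 6 genes under it on both arrays. No paired analysis was possible because each genotype had 1 array, and for the same reason no array could be left out. Signal over background limits Fosl1 and Fosl2 most, and the differences carry no error.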
